A study of Homo sapiens with 24 samples.

Results

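Bortezomib was added to nelfinavir in HepG2 cells, a human hepatoma line, and the transcripts that changed are described here from 8 of the 24 RNA-Seq libraries of the study. The libraries were chosen by label alone: 4 came from cells given 50 nM bortezomib together with 20 µM nelfinavir (called co-treated below) and 4 from cells given 20 µM nelfinavir only, each treated for 10 h. Comparing these groups asks what proteasome inhibition does to cells in which the eIF2α–ATF4 branch of the unfolded protein response (UPR) is enhanced at the same time. A further 8 libraries, 4 from cells given 50 nM bortezomib only and 4 from cells given the solvent DMSO, gave the bortezomib effect without nelfinavir. All of these cells are 1 unmodified line kept under the drugs or solvent for 10 h, so the values describe HepG2 cells only, and the co-treated and nelfinavir groups share no library with the bortezomib and DMSO groups.

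Bortezomib blocks the proteasome, so that ubiquitin-marked and misfolded proteins accumulate. Cells answer such damage with the heat shock response, which supplies chaperones in the cytosol, with the UPR, which supplies folding and degradation factors in the endoplasmic reticulum (ER), and with new proteasome subunits. Nelfinavir, an HIV protease inhibitor, holds eIF2α in its phosphorylated form through the phosphatase cofactor CReP; phosphorylated eIF2α lowers general translation and raises translation of ATF4, a transcription factor for amino acid supply and stress genes.

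The 8 libraries held between 5417434 and 6936576 counts. The groups did not overlap in depth, in the number of genes with a count (12981 to 13291 co-treated, 14311 to 14491 with nelfinavir only), in the percentage of counts from mitochondrially encoded genes (24.9% to 29.6% against 18.0% to 21.6%) or in the percentage taken by the 20 most counted genes (34.5% to 37.6% against 22.6% to 26.1%). In each case the two-sided exact permutation test gave p = 0.0286, the smallest that 4 against 4 libraries allow. The part of these differences in the gene results was not tested, beyond the changes of scaling given below. Co-treated replicates 1 and 2 resembled each other, as did replicates 3 and 4, more than either resembled the other pair (chi-square per degree of freedom 3.99 and 7.30 within the pairs, 13.2 to 20.3 across). All 10 hepatocyte markers looked up were detected in HepG2 cells. Their sum ranged from 6601 to 8065 CPM (counts scaled to a library of 1000000) co-treated and from 17341 to 19260 with nelfinavir only. These sums, and those of other cell types, use library totals, whereas CPM of single genes below use sizes scaled by the trimmed mean of M-values (TMM). The TMM factors were 0.813 to 0.865 co-treated and 1.16 to 1.21 with nelfinavir, so on that scale the gaps would be smaller. Of the other cell types, leukocyte markers ranged from 58.1 to 106 against 283 to 432, nearly all of it from *LYZ*, fibroblast markers reached at most 0.738, and the 1 endothelial marker measured, *KDR*, was at 0. In bulk RNA, fewer cells of a kind and less RNA per cell cannot be told apart.

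Adding bortezomib changed a large part of the transcriptome. Of 12685 genes tested with edgeR's quasi-likelihood test, 3639 (28.7%) were higher and 3600 (28.4%) lower at a Benjamini-Hochberg adjusted p under 0.05, called below "rose" and "fell", and 57.1% were called in either direction. More than 2-fold, 1328 genes (10.5%) rose and 1826 (14.4%) fell, and for 6337 genes (50.0%) the 4 co-treated libraries did not overlap the 4 nelfinavir libraries. The median log2 change of all genes was −0.05. Scaled by library totals alone, in place of the trimmed mean of M-values (TMM), the median of all genes shifted to −0.55, and 1584 genes rose while 6518 fell. Directions of gene groups below are on the TMM scale, and the groups whose median crosses 0 on library totals are named. With co-treated replicates 1 and 2 left out 3298 genes rose and 3420 fell, and without replicates 3 and 4 the counts were 3188 and 3192.

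Cytosolic and mitochondrial chaperones rose. All 32 tested members of the list were called higher (28 on library totals), 26 of them more than 2-fold, with a median log2 change of 2.00 against −0.05 for all genes. The largest changes belonged to the inducible Hsp70 genes. *HSPA1B* (GRCh37 chr6:31795515-31798031) stood at 2801, 3155, 2387 and 2261 CPM in the co-treated libraries and at 22.1, 21.04, 17.6 and 15.97 with nelfinavir only. No co-treated library came near the nelfinavir range, and the log2 change was 7.11 ± 0.14 (SE; edgeR adjusted p = 4.8e-29). *HSPA1A* (chr6:31783320-31785723), its neighbour, went from 31.9 ± 3.92 to 6761 ± 1146 CPM (SD, n = 4), a log2 change of 7.73 ± 0.15 (adjusted p = 8.07e-29). The 3′ ends of these genes share stretches of over 97% identity, so how reads were divided between them is uncertain. *HSPA6*, another inducible Hsp70, had 0 counts in the nelfinavir libraries and 5034 in the co-treated ones, which made it at least 2706-fold higher against a floor of 3 counts over the group; its end is also near-identical to that of *HSPA7*.

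Partners of Hsp70 and Hsp90 moved with them. *DNAJB1*, the Hsp40 that delivers clients to Hsp70, measured 3186, 3401, 4397 and 3682 CPM co-treated and 125, 112, 125 and 120.2 with nelfinavir only, a log2 change of 4.93 ± 0.10 (adjusted p = 8.07e-29). *HSPH1*, the Hsp110 that exchanges nucleotide on Hsp70, measured 4195, 4486, 5336 and 3861 against 231, 199, 154 and 154 (4.60 ± 0.13, adjusted p = 4.14e-24). The groups were far apart for both genes, and co-treated replicate 3 was the highest library for each. *HSP90AA1*, which codes for inducible Hsp90, was already abundant at 3976 ± 243 with nelfinavir and reached 27660.2 ± 3924 CPM, a log2 change of 2.798. *CHORDC1*, an Hsp90 cochaperone, went from 31.9 ± 4.32 to 374 ± 35.6 (log2 change 3.55 ± 0.11, adjusted p = 8.27e-23). Small heat shock protein *HSPB1* changed by 3.99 and the mitochondrial chaperonin *HSPD1* by 2.53. *BAG3*, the Hsp70 cochaperone that routes clients to autophagy, stood at 742, 884, 389.99 and 381 in co-treated replicates 1 to 4 against 25.5 ± 6.96 with nelfinavir, so that the 2 pairs of co-treated libraries differed from each other while both lay far above nelfinavir.

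The promoter of *CHORDC1* is shown because it held the most heat shock elements among the genes named by rule, 6 matches to GAANNTTC or TTCNNGAA, patterns that read the same on both strands and overlap each other here. It covers the 250 bases before the RefSeq start (GRCh38.p14, chr11:90223050-90223299, minus strand), with the matches in capitals.
CHORDC1: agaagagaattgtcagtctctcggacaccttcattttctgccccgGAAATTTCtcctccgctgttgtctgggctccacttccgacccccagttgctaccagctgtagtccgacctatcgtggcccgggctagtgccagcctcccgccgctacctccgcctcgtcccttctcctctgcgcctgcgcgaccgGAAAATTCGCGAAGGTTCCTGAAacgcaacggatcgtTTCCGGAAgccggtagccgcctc
The matches began 205 to 23 bases before the start, and 4 of them ran into each other. At least 1 such match lay within 250 bases before to 50 after a start in 18 of 28 chaperone genes with a RefSeq promoter (64.3%), and in 16.2% of the 27305 genes in the RefSeq table; with only 100 bases before the start, the shares were 35.7% and 8.09%. This is a description of letters; some genes have several starts listed, and binding was not measured.

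ER chaperones and ER-associated degradation factors, the output of the UPR branches that answer unfolded protein in the ER, also rose. Of 42 tested genes, 35 were higher and 3 lower, with a median of 0.92. *HSPA5*, the ER Hsp70 known as BiP (GRCh37 chr9:127997132-128003661), measured 11476, 12296, 16943 and 12954 CPM co-treated and 1734, 1399, 1684 and 1507 with nelfinavir only, without overlap (log2 change 3.09 ± 0.11, adjusted p = 4.29e-22). In cells without nelfinavir it went only from 1459 ± 51.8 in DMSO to 2134 ± 161 in bortezomib, a log2 change of 0.55. The interaction, the log2 bortezomib effect with nelfinavir minus that without, was 2.54 ± 0.14 (adjusted p = 2.64e-15).

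*SDF2L1*, a BiP cofactor, was also high where both drugs were given. Its levels were 235, 235, 273 and 229.7 co-treated, 53.8, 53.8, 53.5 and 42.1 with nelfinavir, and 56.3 ± 3.81 with bortezomib only (log2 change −0.29 against DMSO, adjusted p = 0.0745), and its interaction was 2.55 ± 0.19. *HERPUD1*, a scaffold of the ubiquitin ligase complex of the ER membrane, changed by 3.05 with nelfinavir and 1.38 without. *HSP90B1*, the ER Hsp90, changed by 1.83 and 0.46, and *DNAJB11*, a BiP cochaperone, by 1.49 and 0.34. *SELK*, an ER membrane selenoprotein of degradation, rose from 42.9 ± 6.56 to 298 ± 25.5 (log2 change 2.79) and also rose without nelfinavir (1.92). Across the list 25 interactions were called positive and 3 negative, against 9.74% positive and 10.0% negative over all genes. A single negative interaction remained when co-treated replicate 1, 2 or 3, any bortezomib replicate, DMSO replicate 2 or nelfinavir replicate 4 was left out. On library totals 24 genes of the list rose and 8 fell. Among the members that fell was *XBP1*, the transcription factor of the IRE1 branch, with 73.8, 74.9, 73.5 and 64.9 against 105, 103, 117 and 122 CPM (log2 change −0.64 ± 0.10, adjusted p = 3.13e-06); counts by gene do not separate its spliced form.

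**Figure D1:**
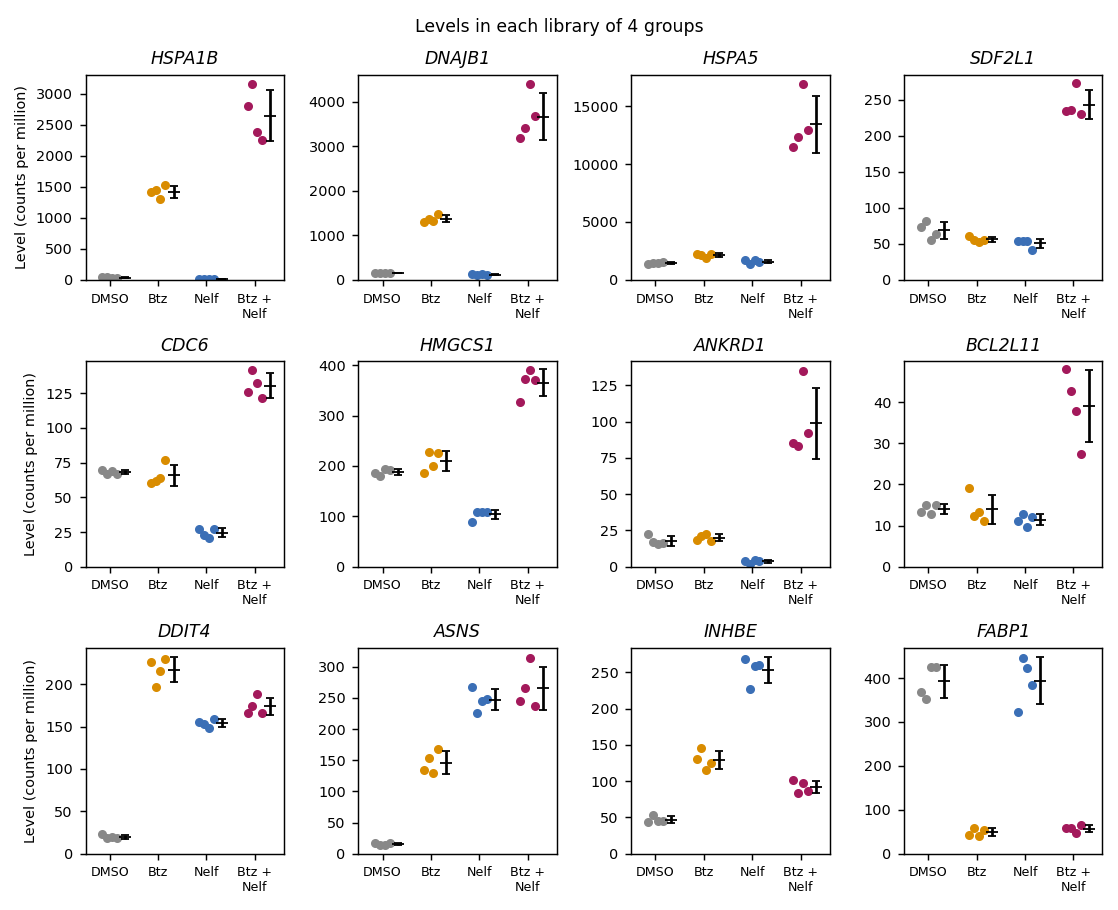
CPM (vertical axes, each from 0) of 12 genes in the 4 libraries of each group, with the mean and SD beside the points. *HSPA5* and *SDF2L1* are high only where both drugs were given, *CDC6* is lowest with nelfinavir and highest with both, *DDIT4* and *ASNS* are high in all 3 drug groups, and *FABP1* is low in both bortezomib groups.

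Proteasome genes rose as a group. Of 42 subunits and assembly factors 31 were higher and 3 lower, with a median of 0.72. *PSMC4*, an ATPase of the base of the regulatory particle, measured 885, 895, 952 and 909 CPM co-treated and 230.1, 239, 262 and 242 with nelfinavir (log2 change 1.90 ± 0.09, adjusted p = 7.03e-19). *PSMD14*, the deubiquitinase of the lid, went from 104 ± 3.67 to 334 ± 11.2 and *PSMD2*, a scaffold of the base, from 112 ± 8.62 to 405 ± 37.0, with no overlap between the groups for either gene. *PSMD12* changed by 2.05 and the core subunit *PSMB1* by 2.07. Without nelfinavir the median was 0.92, and 3 interactions were positive and 5 negative among the 42, near the share over all genes (9.74% and 10.0%), with 5 positive when co-treated replicate 1, 2 or 4 or bortezomib replicate 1 was left out. Assembly factor *PSMG4* fell (−0.85 ± 0.16); its 3′ end is overlapped by *SLC22A23* on the other strand, and the strand setting of the counting is not given in the sources used here. On library totals 19 proteasome genes rose and 8 fell, and 1 in place of 3 fell without co-treated replicate 4 or nelfinavir replicate 1.

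The promoter of *ADRM1*, the ubiquitin receptor of the regulatory particle, is shown as that of the proteasome gene with the smallest p whose 250 bases before a start (GRCh38.p14, chr20:62302646-62302895, plus strand, 1 of 2 starts listed) held the antioxidant response element TGACNNNGC on either strand, in capitals.
ADRM1: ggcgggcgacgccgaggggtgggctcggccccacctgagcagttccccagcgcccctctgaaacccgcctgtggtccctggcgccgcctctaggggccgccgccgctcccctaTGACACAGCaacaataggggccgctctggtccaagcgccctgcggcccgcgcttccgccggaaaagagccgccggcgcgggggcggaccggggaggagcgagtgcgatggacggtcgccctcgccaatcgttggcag
The match began 137 bases before the start. *ADRM1* itself went from 159 ± 16.8 to 524 ± 49.8 CPM (log2 change 1.72 ± 0.09, adjusted p = 5.77e-17). The pattern was found in 14 of 36 proteasome genes with a promoter (38.9%) and in 16.1% of genes in the table. Other lists held it too: 9 of 28 chaperone genes (32.1%), 9 of 38 ER genes (23.7%) and 9 of 40 replication genes (22.5%). With only 100 bases before the start it was found in 6 of 36 proteasome genes (16.7%), in 5 of 28 chaperone genes (17.9%) and in 9.55% of the table.

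Genes that supply ubiquitin and clear aggregates rose in 19 of 30 cases and fell in 3; 5 fell without co-treated replicate 3, and on library totals 17 rose and 10 fell. *ZFAND2A*, an arsenite-inducible proteasome partner, stood at 1009, 1179.9, 1573 and 1159 against 86.7, 69.4, 78.1 and 92.4 CPM (log2 change 3.91 ± 0.12, adjusted p = 1.27e-23). *GABARAPL1*, an autophagosome protein, changed by 3.83. *SQSTM1*, the autophagy receptor p62, changed by 0.76 with nelfinavir and 2.07 without, an interaction of −1.31 ± 0.13 (adjusted p = 3.67e-09). *DDI2*, the protease that activates NRF1, fell by 0.80 on the log2 scale from 69.9 ± 5.88 CPM.

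ATF4 targets went both ways. Of 39 tested, 15 rose (38.5%), 11 fell (28.2%) and 13 were not called, and the median was 0.17. Over all genes 28.7% rose and 28.4% fell, so the falling share of the list was near that of all genes. On library totals 9 targets rose, 19 fell and the median was −0.34. Without nelfinavir the same list had a median of 1.68. The interaction was called negative for 35 of 39 targets and positive for none, against 10.0% negative and 9.74% positive over all genes. Since the study used these samples to describe ATF4 targets, the list is not independent evidence of its direction. *DDIT4*, which restrains mTORC1, stood at 155, 153, 148 and 159 CPM with nelfinavir only and 167, 174, 188 and 166 co-treated; the ranges lay next to each other without overlap, and the log2 change was 0.17 ± 0.08 (adjusted p = 0.0763, not called). Without nelfinavir it went from 19.7 ± 2.35 to 217 ± 14.7, a log2 change of 3.46, and the interaction was −3.28 ± 0.13 (adjusted p = 2.42e-19).

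Several genes of this list serve amino acid supply. *ASNS*, asparagine synthetase, measured 268, 227, 245 and 248 with nelfinavir and 246, 266, 315 and 238 co-treated, ranges that overlapped (log2 change 0.11 ± 0.10, adjusted p = 0.388, not called), whereas DMSO and bortezomib libraries averaged 15.4 and 146. *SLC7A11*, the cystine importer, rose by 0.64 with nelfinavir and by 3.74 without. Cystathionase, *CTH*, rose by 0.72 and 3.67. With nelfinavir neither gene was called on library totals (0.13 for *SLC7A11* and 0.21 for *CTH*), and *CTH* was not called without co-treated replicates 1 and 2 (0.51, adjusted p = 0.0556). Several targets fell on adding bortezomib: *INHBE*, an activin subunit of the liver, stood at 268, 226, 259 and 260.03 with nelfinavir and 101, 83.3, 97.4 and 86.9 co-treated (log2 change −1.46 ± 0.09, adjusted p = 7.51e-15), although it rose without nelfinavir (1.45). *NUPR1*, a chromatin-bound stress protein, and *PCK2*, the mitochondrial PEP carboxykinase, likewise fell with nelfinavir (−1.67 and −1.51) and rose without (1.00 and 0.62). *ATF4* itself measured 873, 921, 1410.4 and 1105 against 964, 753, 889 and 859, overlapping ranges (log2 change 0.31 ± 0.11, adjusted p = 0.0187), and the call is lost without co-treated replicate 3 (0.14, adjusted p = 0.271), co-treated replicate 4 (0.30, adjusted p = 0.05002) and nelfinavir replicate 2 (0.25, adjusted p = 0.0825), without co-treated replicates 3 and 4 together (0.01, adjusted p = 0.937) or when only the groups compared were fitted (0.32, adjusted p = 0.0546). On library totals the changes of *ASNS*, *ATF4* and *DDIT4* were negative.

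Other members of the list still rose strongly. *PPP1R15A*, the stress-induced cofactor GADD34 of the eIF2α phosphatase, went from 30.6, 17.8, 20.8 and 26.2 to 334, 359.9, 342 and 318 CPM (log2 change 3.82 ± 0.13, adjusted p = 1.52e-22; 5.05 without nelfinavir). *ATF3*, a stress-induced repressor, changed by 3.19 ± 0.13, *GDF15*, a secreted stress cytokine, by 3.06 ± 0.14 and *SESN2*, a leucine sensor, by 2.24 ± 0.13. Each rose more without nelfinavir (5.39, 4.64 and 3.57). Their absolute levels were nonetheless highest in the co-treated libraries, where *GDF15* averaged 5242 ± 221 CPM against 4088 ± 421 with bortezomib only.

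**Figure D2:**
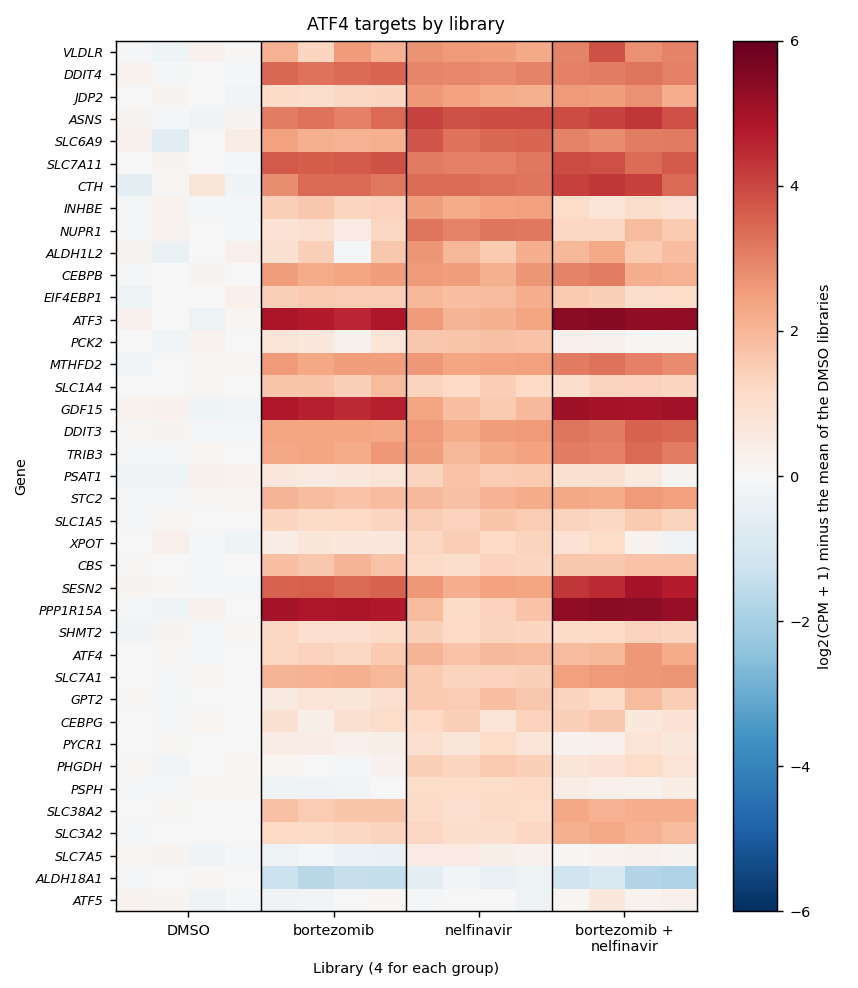
Colour gives log2(CPM + 1) minus the mean of the DMSO libraries for the 39 tested ATF4 targets (rows, ordered by interaction) in 16 libraries (columns). The nelfinavir columns are already red for most genes, and the co-treated columns differ from them most for *PPP1R15A*, *GDF15*, *ATF3* and *SESN2*.

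The promoter of *ATF3* is shown as that of the called ATF4 target with the smallest p that held the C/EBP-ATF pattern TGATGNAA on either strand (capitals) in the 250 bases before a start (GRCh38.p14, chr1:212565157-212565406, plus strand, 1 of 2 starts listed).
ATF3: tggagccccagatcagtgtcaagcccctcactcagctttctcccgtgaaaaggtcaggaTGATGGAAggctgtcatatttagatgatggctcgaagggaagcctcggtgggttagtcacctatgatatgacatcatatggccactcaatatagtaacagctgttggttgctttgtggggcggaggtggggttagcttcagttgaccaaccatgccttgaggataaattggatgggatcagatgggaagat
The match began 191 bases before that start. The pattern was held by 4.46% of all genes in the table; for ATF4 targets no share is given because under 80% of them had a promoter.

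Synthetases that charge tRNA and targets of NRF2, the regulator of the oxidative stress response, also went both ways. Of 20 cytosolic tRNA synthetases 9 rose and 3 fell, where 28.7% of all genes rose and 28.4% fell. Their median was 0.19, against 0.74 without nelfinavir. For these synthetases 11 interactions were negative and 1 positive (9.74% positive and 10.0% negative over all genes). *GARS* rose by 0.29 with nelfinavir and 1.79 without, while *SARS* fell from 179 ± 11.7 to 122 ± 23.9 CPM although it rose without nelfinavir (1.06). NRF2 oxidative stress targets rose in 16 of 27 cases and fell in 6 (28.7% and 28.4% over all genes), with a median of 0.39 against 0.62 without nelfinavir. Of the 27 interactions 15 were negative and none positive (10.0% and 9.74% over all genes). *TXNRD1*, thioredoxin reductase, rose by 2.74 with nelfinavir and 2.73 without. *GCLM*, of glutathione synthesis, rose by 2.25 and *AKR1C1*, a ketosteroid reductase whose end is near-identical to that of *AKR1C2*, by 1.64, and *HMOX1*, heme oxygenase, by 0.78 (0.27 and not called on library totals). The efflux pump *ABCC3* fell (−1.28 ± 0.11). Without co-treated replicates 3 and 4 together, 5 synthetases in place of 9 rose. On library totals no synthetase rose and 13 fell, 6 NRF2 targets rose and 9 fell, and both medians were negative (−0.32 and −0.12).

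Genes of DNA replication and S phase rose with nelfinavir present, whereas mitotic genes fell. Of 49 replication genes 28 were higher and 3 lower (median 0.48); on library totals 13 rose, 14 fell and the median was −0.03, with all genes at −0.55. Without nelfinavir the median was −0.48, and 33 interactions were positive and none negative (9.74% positive and 10.0% negative over all genes). *CDC6*, which loads the replicative helicase (GRCh37 chr17:38444131-38460909), stood at 126, 142, 132 and 121 CPM co-treated and 26.997, 23.1, 21.02 and 27.5 with nelfinavir only (log2 change 2.40 ± 0.10, adjusted p = 1.38e-19). DMSO and bortezomib libraries sat between those levels, at 67.9 ± 1.38 and 65.8 ± 7.31, and the interaction was 2.45 ± 0.14 (adjusted p = 3.69e-15). *DTL*, the substrate receptor that removes CDT1, measured 38.7, 40.4, 52.8 and 30.8 against 6.57, 8.78, 10.3 and 7.92, with 35.7 ± 1.25 in DMSO (log2 change 2.28 ± 0.15, interaction 2.43 ± 0.20). Helicase subunits *MCM7* and *MCM4* rose by 1.30 and 1.04, the G1/S cyclins *CCNE1* and *CCNE2* by 1.96 and 1.60, and *E2F1*, their transcription factor, by 1.65. *CCNE2* was low, at 1.44 ± 0.643 with nelfinavir, and *INTS8* overlaps its 3′ end on the other strand. The replication protein subunit *RPA3* fell (−1.22 ± 0.13).

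The promoter of *DTL* is shown as that of the replication gene with the smallest p among those that rose and held an E2F pattern, TTTGGCGC or TTTCCCGC on either strand (capitals), before the start (GRCh38.p14, chr1:212035498-212035747, plus strand); this choice was made after the matches were seen.
DTL: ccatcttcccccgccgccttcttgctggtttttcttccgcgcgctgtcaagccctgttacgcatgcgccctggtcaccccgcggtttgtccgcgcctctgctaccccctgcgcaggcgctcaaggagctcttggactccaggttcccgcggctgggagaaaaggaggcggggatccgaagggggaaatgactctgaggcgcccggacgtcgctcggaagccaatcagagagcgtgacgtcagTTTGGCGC
The match began 8 bases before the start. Such a pattern lay in 20 of 40 replication genes with a promoter (50.0%) and in 2.75% of genes in the table, and in 40.0% and 1.39% with only 100 bases before the start.

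In the mitosis and spindle list 25 of 32 genes fell and none rose (median −0.75), with a median of −0.70 without nelfinavir and 2 of 32 interactions called, both negative, a share below that over all genes (10.0% negative); 1 was called without co-treated replicate 1, 3 or 4, bortezomib replicate 2 or 4 or DMSO replicate 2, and without bortezomib replicate 3 there was 1 in each direction. *TOP2A*, the topoisomerase of chromosome condensation, stood at 424, 393, 499.6 and 444 against 1363, 1131, 1242 and 1068 CPM (log2 change −1.45 ± 0.09, adjusted p = 4.55e-15). *NDC80*, of the kinetochore, changed by −1.21, *CDK1*, the mitotic kinase, by −0.77, and *KIF20A*, a kinesin of cytokinesis, by −1.97; *CDC25B*, a phosphatase that activates CDK1, fell from 98.8 ± 8.22 to 46.3 ± 6.57.

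Cholesterol synthesis and uptake genes were all called: 17 of 22 rose (77.3%) and 5 fell (22.7%), with a median of 0.90. Over all genes 28.7% rose, 28.4% fell and 57.1% were called, so the falling share of the list was near that of all genes. *HMGCS1*, HMG-CoA synthase, stood at 327, 373, 390.4 and 371 against 89.8, 109, 109 and 108 CPM, with 188 ± 5.96 in DMSO and 209.9 ± 20.6 in bortezomib only, giving log2 changes of 1.82 with nelfinavir and 0.16 (adjusted p = 0.118) without. The sterol oxidase *MSMO1* changed by 1.47 and 0.42. Across the list 11 of 22 interactions were positive and none negative (9.74% positive and 10.0% negative over all genes). *TM7SF2*, a sterol reductase, fell (−1.34 ± 0.13).

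Liver function genes fell. Of 48 hepatocyte secreted proteins and regulators 37 were lower and 1 higher, with a median of −0.88. *FABP1*, the liver fatty acid binding protein, stood at 57.5, 59.3, 46.8 and 64.6 against 323, 445, 423 and 385 CPM (log2 change −2.79 ± 0.12, adjusted p = 1.38e-19). *APOA2*, an HDL apolipoprotein, fell from 2751 ± 119.99 to 827 ± 55.3 and *SERPINC1*, antithrombin, from 87.7 ± 6.59 to 28.3 ± 2.79. Albumin, *ALB*, changed less, from 2949.7 ± 322 to 2065 ± 471 (log2 change −0.51 ± 0.12, adjusted p = 0.00068). The liver transcription factor *HNF4A* fell by 1.44 on the log2 scale, against a change of −0.30 without nelfinavir. The member that rose was *NR0B2*, the nuclear receptor SHP that represses bile acid synthesis (1.39 ± 0.08), whose 3′ end *NUDC* overlaps on the other strand. Beyond the list, the strongest falls by p included *SLC2A2*, the glucose transporter GLUT2 (−3.10), *METTL7A*, a lipid droplet protein (−3.08), *RNF43*, a ligase that removes Wnt receptors (−2.97), *DGAT2*, of triglyceride synthesis (−2.93), *TGFBR3*, betaglycan (−2.71), *ALDH1B1*, an aldehyde dehydrogenase (−2.50), *MAT1A*, which makes S-adenosylmethionine (−1.88), and *MBNL3*, a splicing regulator (−1.85). These 8 genes were picked among those over 2-fold whose libraries did not overlap.

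Among 32 apoptosis genes 13 rose (40.6%), 5 fell (15.6%) and 14 were not called (median 0.31). Over all genes 28.7% rose, 28.4% fell and 57.1% were called in either direction. On library totals 9 of the apoptosis genes rose, 13 fell and the median was −0.20. TRAIL receptor genes had the smallest p-values: *TNFRSF10D*, a decoy receptor for TRAIL, went from 15.9, 15.6, 14.02 and 12.5 to 107, 109, 110.2 and 80.3 CPM (log2 change 2.804 ± 0.12, adjusted p = 4.43e-19), *TNFRSF10B*, the receptor DR5, changed by 1.71 and *TNFRSF10A* by 1.45. *MCL1*, a survival protein, rose by 1.19, whereas the inhibitors *BIRC5* and *BIRC3* fell (−1.12 and −1.81), as did *BAX* (−1.09), an effector of mitochondrial permeabilization that is also a p53 target. The 10 genes that the study named for apoptosis rose in 8 cases and fell in none. They were chosen by the study on these samples, so their direction is no independent evidence. Its criterion was a rise with bortezomib that ISRIB blunted or nelfinavir augmented, which is not the comparison made here. For *BCL2L11* the levels below show no such rise with bortezomib only. *BCL2L11*, the BH3-only protein BIM (GRCh37 chr2:111876955-111926021), stood at 48.0, 42.7, 37.9 and 27.4 against 11.1, 12.8, 9.73 and 12.2 CPM (log2 change 1.76 ± 0.17, adjusted p = 7.77e-11), and at 14.04 ± 1.17 in DMSO and 13.9 ± 3.52 in bortezomib only, an interaction of 1.77 ± 0.24 (adjusted p = 1.39e-06). *MIR4435-1HG*, a noncoding gene on the other strand, overlaps its 3′ end and itself rose by 1.32, so reads of the pair cannot be told apart without strand. *PMAIP1* (NOXA) and *BBC3* (PUMA), also BH3-only genes, rose by 2.00 and 1.07, *DDIT3* (CHOP) by 0.88, *TRIB3* by 0.85 and *ERN1* (IRE1) by 0.77; *DDIT3* is overlapped by *MARS*. *ERN1* was not called on library totals (0.26) or without co-treated replicates 1 and 2 (0.38, adjusted p = 0.124). *CEBPB* (0.18 ± 0.17, adjusted p = 0.367) and the calcium channel gene *ITPR1* (0.38 ± 0.24, adjusted p = 0.167) were not called. For 7 of the 10 genes the interaction was negative (10.0% over all genes), and for *BCL2L11* it was positive. Of the negative ones, *ATF4*, *DDIT3*, *TRIB3*, *PPP1R15A* and *CEBPB* are also in the ATF4 target list and were already counted there.

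AP-1 and immediate early genes rose in 17 of 26 cases, 16 of them more than 2-fold, and fell in 2 (median 1.30; 15 rose and 4 fell on library totals). *MAFF* and *MAFK*, small Maf factors, changed by 3.40 ± 0.14 and 2.97 ± 0.12, *JUN* by 1.85 ± 0.10 and *DUSP1*, a phosphatase of MAP kinases, by 3.69 ± 0.22. *CYR61* and *CTGF*, secreted matrix proteins, differed: *CYR61* measured 30.4, 47.5, 16.9 and 14.5 against 3.94, 3.36, 2.47 and 2.73 CPM and rose, while *CTGF* overlapped between the groups at 17.5, 12.9, 20.0 and 9.95 and 11.8, 12.9, 11.2 and 10.00 (log2 change 0.40 ± 0.23, adjusted p = 0.149, not called; 0.55, adjusted p = 0.0493, without co-treated replicate 4), and it fell without nelfinavir (−3.16). *EGR1* fell (−1.18 ± 0.27). *ANKRD1*, a nuclear ankyrin repeat protein outside the list, had the largest positive interaction among genes named by rule: 85.4, 82.9, 135 and 91.8 CPM co-treated, 4.06, 2.19, 4.80 and 4.02 with nelfinavir only, 17.9 ± 3.29 in DMSO and 20.0 ± 2.30 in bortezomib only (log2 change 4.70 ± 0.19, interaction 4.54 ± 0.25, adjusted p = 3e-15). Polyamine genes rose in 7 of 12 cases and fell in 3, on library totals in 3 and 6. Over all genes 28.7% rose and 28.4% fell, so the falling share of the polyamine list was near that of all genes. The rise was led by *SAT1*, the acetyltransferase that sends polyamines to export, at 979, 1057, 1053 and 1065 against 151, 134, 141 and 155 (log2 change 2.84 ± 0.08, adjusted p = 4.11e-25). *SMOX*, spermine oxidase, changed by 2.14, and *SAT2* fell (−0.72). p53 targets rose in 10 of 24 cases and fell in 6 (28.7% higher and 28.4% lower over all genes) with a median of 0.06, on library totals in 7 and 13 with a median of −0.45: *GADD45A*, of growth arrest, changed by 1.63 and the exonuclease gene *AEN* by 1.03. Of 6 metallothionein and zinc export genes 2 rose, *MT1G* (0.65) and *MT2A* (0.49), and 2 fell, among them *MT1F* (−0.68), with co-treated and nelfinavir ranges overlapping for *MT2A* and *MT1F*; these shares are near those over all genes (28.7% and 28.4%). The call for *MT1F* was lost when co-treated replicate 1 or 4 or nelfinavir replicate 1, 3 or 4 was left out, and that for *MT1G* without co-treated replicate 2; none of the 6 fell without co-treated replicate 4 or nelfinavir replicate 1 or 4, and 1 fell without co-treated replicate 1 or 3 or nelfinavir replicate 2 or 3. On library totals none of the 6 rose and 2 fell. All 13 mitochondrially encoded genes rose on the TMM scale, by a median of 1.06, for example *MT-ND2* (1.42 ± 0.16), *MT-ND5* (1.38 ± 0.11) and *MT-CO1* (1.23 ± 0.09). The lowest values over the alternatives were 0.90, 0.87 and 0.72, in that order. As a percentage of library totals, mitochondrially encoded genes averaged 27.2% co-treated and 20.5% with nelfinavir only.

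Set beside bortezomib against DMSO over all genes, the effects overlapped in part. Without nelfinavir 53.4% of genes were called, 3498 (27.6%) higher and 3275 (25.8%) lower, and 19.7% were called for the difference of the effects. Of the genes that rose more than 2-fold, 683 did so in both settings, 51.4% of those with nelfinavir and 52.1% of those without, and for falls the number was 899, 49.2% and 58.0%. At any fold, 2462 genes rose in both settings, 67.7% of those with nelfinavir and 70.4% of those without. For falls at any fold the number was 2228, 61.9% and 68.0%. Opposite calls were made for 110 genes that rose at any fold with nelfinavir and 114 that fell. Among genes over 2-fold with nelfinavir, the opposite calls numbered 17 and 21. The median absolute log2 change was 0.63 with nelfinavir and 0.56 without. The difference of the effects itself was called positive for 1236 genes (9.74%) and negative for 1269 (10.0%).

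**Figure D3:**
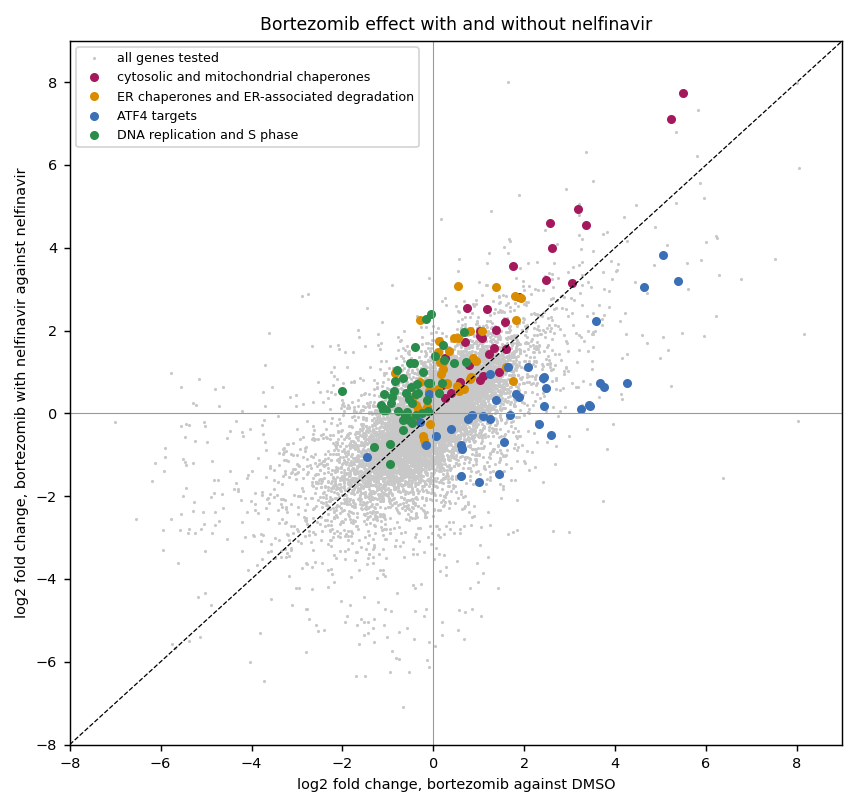
Log2 fold change of bortezomib against DMSO (horizontal axis) and of bortezomib with nelfinavir against nelfinavir (vertical axis) for the 12685 genes tested, 3 of which lie outside the axes; the dashed line marks equal changes. Chaperones, ER and replication genes lie mostly above the line and ATF4 targets mostly below it.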

How the data were processed

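RNA-Seq was run on HepG2 cells with 4 biological replicates for each of 6 conditions. The authors prepared 3′ end libraries from total RNA (QuantSeq 3′ FWD), sequenced them as 80-base single-end reads, trimmed them with cutadapt 2.8 and aligned them with STAR to hg19; the deposited values are raw read counts per gene of the Ensembl GRCh37 annotation, not normalized. Which program counted the reads, with what strand option, and whether duplicate molecules were collapsed is not given in the sources used. Levels of different genes were not compared.

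From these counts edgeR 4.0.16 (R 4.3.3) was fitted to all 24 libraries with TMM scaling, after keeping genes that passed filterByExpr with a minimum count of 5 and a minimum total of 25, 12685 of 18915. Quasi-likelihood tests gave co-treated against nelfinavir, bortezomib against DMSO, and the difference of these effects, with Benjamini-Hochberg adjustment over all genes tested. CPM of single genes use TMM-scaled library sizes, and the sums of cell type markers use library totals. P-values and SEs rest on the spread between replicates estimated over all 24 libraries, not over the compared groups alone. The fit was tested on simulated counts in which only a small part of the genes changed, in both directions. That test therefore did not check the scaling where a large part of the genes changes. Library quantities were compared by two-sided exact permutation tests with SciPy 1.17.1.

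The comparison and the gene lists were chosen with earlier results of these data known. Genes were named by rule: the 10 smallest p-values in each direction among genes over 2-fold that did not overlap, the leading called members of each list with 1 that moved against it, the 10 apoptosis genes of the study, and 5 genes in each direction of the interaction. The other named genes were chosen after their values were seen, and some genes given by the rule are not reported here. Gene positions are from the GRCh37 annotation; promoter sequences are from RefSeq (GRCh38.p14) and matched 9816 of the 12685 genes tested (77.4%), so motif shares among all rising or falling genes are void and not given. Shares among lists and over the RefSeq table count a gene once if any listed start held the pattern; the XBP1 pattern TGACGTGG and metal response pattern TGCGCNC lay in 0.927% and 23.0% of genes in the table. Gene ends were compared with all annotated transcripts for stretches of at least 80 bases at 97% identity: *ATF4*, *CHORDC1*, *HSP90AA1*, *HSPB1*, *HSPD1*, *MT2A*, *MT-CO1*, *MT-ND2*, *PSMD12* and *SELK* have such pseudogene copies, *DDI2* shares its end with *RSC1A1*, and *GABARAPL1* resembles *GABARAPL3*. The ends of *ADRM1*, *HSP90B1*, *KIF20A*, *MAFK*, *MCL1*, *PCK2*, *SAT2*, *SQSTM1* and *TNFRSF10B* are overlapped by counted genes on the other strand. Alternatives were DESeq2 1.42.0, other scalings, filters and sample sets, removal of mitochondrially encoded genes, glmTreat and leaving out each library; leaving out pairs of co-treated libraries was added after the data were seen. Libraries with ISRIB entered the fit only as further estimates of spread.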

Additional observations from a re-analysis of the deposited data

Results flagged for a closer look

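The bortezomib effect differed with and without nelfinavir, by the test of the difference itself (edgeR's quasi-likelihood test, Benjamini-Hochberg adjusted p under 0.05), for 1236 genes in the positive direction and 1269 in the negative. Values below are the log2 effect with nelfinavir minus that without, for the named genes where the difference was called.

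The difference was called for 18 of 32 cytosolic and mitochondrial chaperones, each positive, against 9.74% positive over all genes. Among them were *HSPA1A* (2.23), *HSPH1* (2.02), *HSPA1B* (1.88), *CHORDC1* (1.79), *DNAJB1* (1.75), *HSPB1* (1.39), *HSPD1* (1.34), *BAG3* (1.19) and *HSP90AA1* (0.91). In the ER the difference was positive for *SDF2L1* (2.55), *HSPA5* (2.54), *HERPUD1* (1.67), *HSP90B1* (1.37), *DNAJB11* (1.16) and *SELK* (0.87), and negative for the UPR regulators *XBP1* (−0.44) and *ERN1* (−0.98). Of 49 replication genes 33 were called, each positive, among them *FAM111B* (2.56), *CDC6* (2.45), *DTL* (2.43), *CCNE2* (2.01), *MCM4* (1.84), *E2F1* (1.44), *CCNE1* (1.28) and *MCM7* (1.06), while the mitotic phosphatase gene *CDC25B* (−0.57) was negative. Sterol synthesis gave *HMGCS1* (1.66) and *MSMO1* (1.05). *FAM111B*, a protease of replicating cells, fell without nelfinavir (−2.02) and rose with it (0.54); the rise was not called on library totals (0.035) or without co-treated replicates 1 and 2 (0.40, adjusted p = 0.106).

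Of 39 ATF4 targets 35 were called, each negative, among them *DDIT4* (−3.28), *ASNS* (−3.14), *CTH* (−2.94), *INHBE* (−2.91), *NUPR1* (−2.67), *CEBPB* (−2.26), *ATF3* (−2.20), *PCK2* (−2.12), *GDF15* (−1.58), *DDIT3* (−1.56), *TRIB3* (−1.55), *SESN2* (−1.33), *PPP1R15A* (−1.22) and *ATF4* (−1.06). Among tRNA synthetases the values were −1.60 for *SARS*, −1.50 for *GARS* and −0.41 for *TARS*, and among NRF2 targets −3.10 for *SLC7A11*, −1.23 for *ABCC3* and −0.88 for *AKR1C1*. Of 48 liver genes 18 were negative (10.0% over all genes) and 3 positive, or 1 without co-treated replicate 2; it was negative for *SERPINC1* (−1.69), *HNF4A* (−1.14), *NR0B2* (−1.13) and *APOA2* (−0.84).

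Other groups were mixed. Proteasome genes gave *PSMD2* (0.40), *ADRM1* (0.35) and *PSMB1* (−0.51). Ubiquitin and clearance genes gave *DDI2* (0.49), *GABARAPL1* (−1.18) and *SQSTM1* (−1.31). Apoptosis genes gave *BCL2L11* (1.77), *TNFRSF10D* (1.04), *TNFRSF10A* (−0.46), *TNFRSF10B* (−0.58) and *BBC3* (−0.98), and the p53 target *GADD45A* −0.69. Immediate early genes gave *CTGF* (3.56), *CYR61* (1.93), *MAFF* (0.85), *MAFK* (0.67) and *JUN* (−0.61), and polyamine genes *SAT2* (−0.42) and *SMOX* (−0.94). Outside the lists the values were 4.54 for *ANKRD1*, 2.15 for *MIR4435-1HG*, 0.98 for *RNF43*, −1.82 for *DGAT2* and −2.56 for *S100P*. Leaving out a single library ended the call of the difference in at least 1 case each for *XBP1*, *ADRM1*, *SAT2*, *DDI2*, *TNFRSF10A*, *CDC25B* and *TARS*. Leaving out co-treated replicates 1 and 2 together ended it for *BAG3* (0.60, adjusted p = 0.0587), and leaving out replicates 3 and 4 together ended it for *ERN1*, *PSMD2* and *GADD45A*.

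A value set apart from the other 3 of its group, by Dixon's criterion (critical value 0.829), was found in 12 of 246 groups of values, and chance alone sets apart about 1 in 20. Co-treated replicate 3 stood high for *HSP90AA1* (33495 CPM), *TRIB3* (577), *PSMD2* (460.3) and *SDF2L1* (273), replicate 4 low for *XBP1* (64.9) and *TNFRSF10D* (80.3), and replicate 1 low for *SAT1* (979). Among nelfinavir libraries replicate 2 stood high for *MSMO1* (66.2), replicate 1 low for *HMGCS1* (89.8), replicate 3 low for *TARS* (234) and *PMAIP1* (2.98), and replicate 4 low for *SDF2L1* (42.1).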

How the results depend on the processing

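Scaling mattered most. On library totals alone, 1584 genes rose and 6518 fell, and over 2-fold 500 rose and 3735 fell. The same scaling gave negative log2 changes for *ASNS* (−0.40), *GARS* (−0.22), *TARS* (−0.063), *CTGF* (−0.11), *MT2A* (−0.023), *ATF4* (−0.19), *ITPR1* (−0.13), *DDIT4* (−0.34) and *CEBPB* (−0.33). It also gave negative medians for NRF2 targets (−0.12), ATF4 targets (−0.34), tRNA synthetases (−0.32), apoptosis genes (−0.20), p53 targets (−0.45), metallothioneins (−0.087), polyamine genes (−0.18) and replication genes (−0.026), with all genes at −0.55. A test against a 2-fold change itself (glmTreat) called 591 genes higher and 644 lower. Leaving out each library in turn gave −0.0055 to 0.15 for *ASNS*, −0.0024 to 0.31 for *CEBPB* and −0.020 to 0.088 for the p53 median, negative without co-treated replicate 3, 2 and 3, in that order, and without replicates 1 and 2 *CEBPB* was at −0.33; *ASNS* and *CEBPB* were not called. Without mitochondrially encoded genes the difference in the percentage of the 20 most counted genes was 7.38 percentage points, in place of 10.9. Leaving out each library in turn gave 3429 to 3528 rising and 3369 to 3482 falling genes, 1277 to 1366 and 1740 to 1863 over 2-fold, and 1050 to 1456 positive and 1015 to 1162 negative interactions; the differences between the groups ranged from −892744 to −640634 in depth, −1384 to −1280.4 in genes detected, 5.86 to 7.43 percentage points in mitochondrial counts, 10.1 to 11.3 in the 20 most counted genes and −0.363 to −0.346 in the TMM factor. The causes were not tested. Of 118 named genes tested for bortezomib added to nelfinavir, 100 kept their direction and their side of the threshold under every alternative, and of 76 named genes with the interaction called, 65 kept that call. Deviations of same-numbered co-treated and nelfinavir libraries correlated at −0.05, 0.19, 0.14 and −0.02, and those of differently numbered ones at −0.18 to 0.16. The libraries were therefore not treated as paired. Such correlations cannot show how the cultures were set up, so a pairing by number is not excluded. With the replicate number as a block 3663 genes rose and 3613 fell.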

Other observations

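Outside the lists, *IL11*, a cytokine of the interleukin 6 family, had 6 counts over the nelfinavir libraries and 1046 over the co-treated ones; it averaged 13.3 CPM with bortezomib only and 0.03500 in DMSO. *S100P*, a calcium-binding protein, stood at 238, 174, 205 and 229.7 CPM with nelfinavir and 285, 294, 389.6 and 343 co-treated (log2 change 0.63 ± 0.10, 0.12 and not called on library totals), against 27.6 ± 1.88 in DMSO and 252 ± 11.1 with bortezomib only. *MIR4435-1HG* measured 209, 236, 289.8 and 253 against 101, 95.0, 103 and 95.7 with nelfinavir and 232 ± 12.5 in DMSO; its end is near-identical to that of *CYTOR*. These genes were looked at after their values were seen, apart from *S100P* and *MIR4435-1HG*, which the naming rule gave.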
